A study of Mus musculus with 23 samples.

Results

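The miR-15/16 family was followed through small RNA sequencing of mouse liver by the 8 mature miRNAs mmu-miR-15a-5p, mmu-miR-15b-5p, mmu-miR-15b-3p, mmu-miR-16-5p, mmu-miR-16-1-3p, mmu-miR-195a-5p, mmu-miR-195a-3p and mmu-miR-497a-5p. They were chosen by name, as 5 mature strands of the 5p arm and 3 of the 3p arm, and not by any measured value. All 8 were among the 1218 mature miRNAs counted, and all 8 were among the 386 that passed the filter on low counts. The 23 livers came from F3 C57BL/6J males, each sequenced as 1 library. The reference group of 8 mice (labelled STD_Cont) came from the control lineage and ate a low-fat diet. The HFoleic group of 8 mice (HFD_Cont) came from the same control lineage and ate a high-fat, high-sucrose diet. The HFepa group of 7 mice (HFD_O3) ate that same high-fat diet but came from the omega 3 lineage. The control lineage had been bred on a growing diet with high oleic sunflower oil and the omega 3 lineage on one with fish oil rich in eicosapentaenoic acid (EPA). No group combined the omega 3 lineage with the low-fat diet, so the effect of the lineage was measured under the high-fat diet alone. Whole liver was used, and in such bulk tissue fewer cells of a type and less RNA per cell cannot be told apart.

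A miRNA directs the Argonaute protein to messenger RNAs that pair with its seed, the bases 2 to 8 from its 5′ end, and lowers their translation and stability. The miR-15/16 family is known for holding back the cell cycle, since messenger RNAs of several cyclins, of cyclin-dependent kinases and of the survival factor Bcl2 carry sites for its seed. In liver the family has been linked to the restraint of hepatocyte proliferation after birth and after partial hepatectomy. Each hairpin precursor is cut into a 5p and a 3p strand, of which the 5p strand is the one usually kept in this family.

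The mature sequences show what holds the family together, which is the seed of the 5p strands. They are printed 5′ to 3′ from RefSeq (GRCm38.p6), with the seed in capitals, and all 8 names were matched.
miR-15a-5p: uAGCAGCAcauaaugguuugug
miR-15b-5p: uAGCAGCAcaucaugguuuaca
miR-16-5p: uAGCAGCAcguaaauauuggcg
miR-195a-5p: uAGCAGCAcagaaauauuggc
miR-497a-5p: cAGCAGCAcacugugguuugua
The 5 strands shared the seed AGCAGCA, and 10 of the first 21 positions held 1 base in all of them. In the remainder the likeness varied by pair, without a clean split into sets. miR-15a-5p differed from miR-16-5p at 6 of 22 positions and from miR-195a-5p at 6 of 21. miR-15b-5p differed from miR-497a-5p at 6 of 22. miR-16-5p and miR-195a-5p differed at 2 of 21 positions compared from the 5′ end, and miR-15a-5p and miR-15b-5p at 4 of 22. miR-497a-5p, which opens with c in place of u, differed from miR-15a-5p at 5 of 22 positions but from miR-16-5p at 11.

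The 3p strands carry other seeds and would pair with other messenger RNAs. They are shown because the comparison of the arms below rests on them.
miR-15b-3p: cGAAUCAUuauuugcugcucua
miR-16-1-3p: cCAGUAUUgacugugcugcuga
miR-195a-3p: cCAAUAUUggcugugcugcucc
None of the 3 shared its seed with another of them or with the 5p strands. Of 1679 mature mouse names in the RefSeq table, 10 held AGCAGCA at bases 2 to 8, and 6 of these were in the count table, the 5 above and miR-322-5p.

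The family sits in pairs of neighbouring hairpins (all positions in GRCm38.p6). mmu-miR-15a-5p lies at chr14:61632075-61632096 on the minus strand, within an intron of the non-coding gene Dleu2 in GENCODE M21, and the hairpin of Mir16-1 lies beside it at chr14:61631880-61631972, where its end overlaps an exon of 1 Dleu2 transcript. Mir15b, at chr3:69009772-69009835 on the plus strand, and Mir16-2, at chr3:69009902-69009996, are 66 bases apart in an intron of Smc4, which encodes a condensin subunit needed for mitotic chromosomes. Mir497, at chr11:70234717-70234800 on the plus strand, and Mir195a, at chr11:70235042-70235135, are 241 bases apart and overlapped no gene other than miRNA genes. The mature miR-16-5p of Mir16-1 and of Mir16-2 is the same sequence, so its count is the sum of both loci, whereas the 3p strands of these hairpins tell the loci apart.

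The libraries held 3725432 to 8139344 miRNA counts, with 5242218 to 8139344 in reference, 4340903 to 7220112 in HFoleic and 3725432 to 4947990 in HFepa. The hepatocyte miRNAs miR-122-5p, miR-192-5p, miR-194-5p and miR-148a-3p together made up 187237 to 356523 library-scaled counts (CPM), so the tissue label held in every library. Reference library 3 stood apart: 79 of the 386 tested miRNAs were more than 2-fold away from its group's median, against 8 to 35 in the other libraries. It had the lowest hepatocyte sum, and it also decided several values of the family, which are therefore given with and without it. The library number is the only sign of a processing order in the labels. Reference held numbers 1 to 8, HFoleic 9 to 15 and 23, and HFepa 16 to 22, so in HFepa vs. reference the group and the number cannot be told apart.

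The family was led by miR-16-5p. Levels are CPM, counts scaled to a common library size with TMM factors, and the mature strands are of nearly equal length, at 21 or 22 bases. With 987518 counts over the 23 libraries, miR-16-5p was the 21st most counted of the 1218 miRNAs and took 0.793% of all counts. It made up 84.8 to 91.7% of the summed CPM of the 5 5p strands, with a median of 90.0%. miR-15a-5p followed at rank 67 and a median share of 6.48%, then miR-497a-5p (rank 119, 1.32%), miR-195a-5p (rank 123, 1.17%) and miR-15b-5p (rank 151, 0.742%). The 3 3p strands stood at ranks 249 to 257, with 1342 to 1475 counts each over all libraries. The order of miR-16-5p over miR-15a-5p, and of miR-15a-5p over the remaining 3, held in every library. The ranges of miR-195a-5p (82.3 to 349.6 CPM) and miR-497a-5p (70.7 to 382.8 CPM) overlapped almost wholly. Library by library, miR-497a-5p was the higher of the pair in 8 of 8 reference, 5 of 8 HFoleic and 6 of 7 HFepa libraries. The ranges of the 3p strands also overlapped.

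**Figure D1:**
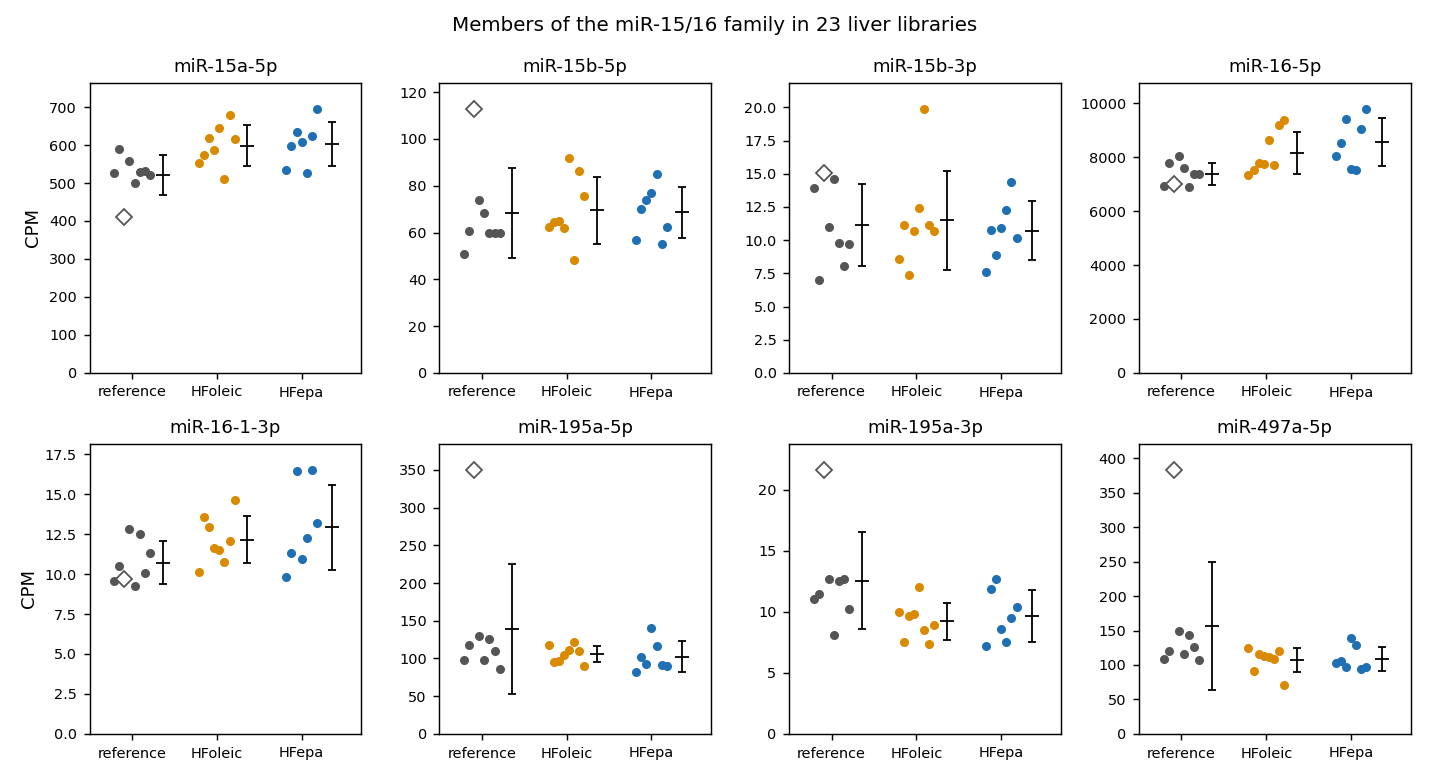
CPM of the 8 family members (y axis, from 0, a scale for each panel) in the 8 reference, 8 HFoleic and 7 HFepa libraries, 1 point a library, with the mean and SD as a bar to the right of each group. The open diamond is reference library 3, which lies above all other libraries for miR-15b-5p, miR-195a-5p, miR-195a-3p and miR-497a-5p and below all others for miR-15a-5p.

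The comparison of HFoleic with reference asked what the high-fat diet changed within the control lineage, and that of HFepa with reference what diet and lineage changed together. A call required a log2 fold change beyond 0.25 in either direction together with a Benjamini-Hochberg adjusted p below 0.05. No family member was called in any of the 3 comparisons, 0 of 8 each. Of all 386 miRNAs tested, the share called was 12.4% for HFoleic vs. reference, 15.8% for HFepa vs. reference and 0% for HFepa vs. HFoleic. Without the fold threshold, in the same order, 0, 1 and 0 of 8 members passed, against 12.7%, 17.9% and 0% of all miRNAs, and the 1 member was miR-16-5p. At an unadjusted p under 0.05, 4, 5 and 0 of 8 members passed in the test of edgeR, against 28.5%, 28.5% and 5.7% of all. DESeq2 called 0 of 8 in each comparison as well. The median log2 fold change of the 8 members was 0.03, -0.02 and 0.02 in these comparisons, against 0.00, -0.06 and -0.02 over all tested miRNAs. Both comparisons with reference use the same reference libraries, so they are not independent of each other.

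miR-16-5p, the most abundant strand with the family seed, ranged from 6899 to 8044 CPM in reference with a median of 7386. It ranged from 7323 to 9375 CPM in HFoleic, with a median of 7764, and from 7526 to 9782 CPM in HFepa, with a median of 8545. The groups overlapped, but 3 of 8 HFoleic and 5 of 7 HFepa libraries lay above the highest reference library. Its mean was 7381 ± 414 CPM (SD, n = 8) in reference, 8161 ± 793 (n = 8) in HFoleic and 8568 ± 891 (n = 7) in HFepa. In HFepa vs. reference miR-16-5p rose by 0.22 on the log2 scale (SE 0.07), which is 16.1%, with an adjusted p of 0.0340 in edgeR's quasi-likelihood test after Benjamini-Hochberg adjustment, a size below the fold threshold of a call. For HFoleic against reference, edgeR gave miR-16-5p a difference of 0.15 (SE 0.07, adjusted p = 0.146). Between HFepa and HFoleic the difference was 0.07, with a 95% interval of -0.07 to 0.21 on the log2 scale. The adjusted p of HFepa vs. reference passed 0.05 in 19 of 23 fits that left out a library (0.0158 to 0.0647), and not without reference library 5 or HFepa libraries 17, 18 or 22.

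The level of miR-16-5p was also set against the library number. The libraries were split between number 11 and number 12, a break that was chosen for these fits and that no label marks. HFoleic was the only group on both sides of this break. Its 3 libraries numbered up to 11 held 7323 to 7792 CPM, inside the reference range. The 5 numbered from 12 held 7705 to 9375 CPM, of which libraries 12 and 14 (7737 and 7705 CPM) lay inside the range of those 3. When the fit held a term for that break, miR-16-5p differed from reference by 0.03 in HFoleic (SE 0.08, adjusted p = 0.893 in edgeR). In HFepa it differed by 0.04 (SE 0.11, adjusted p = 0.982), both on the log2 scale. Over all settings that kept every library the adjusted p of edgeR, limma or DESeq2 ranged from 0.00610 to 0.982 for HFepa vs. reference. Among libraries 1 to 11 alone, which hold no HFepa library, the log2 fold change was 0.04 for HFoleic (adjusted p = 0.847 in edgeR). The part of the library number in the difference was not tested further. Without reference library 3 the fold change in HFepa vs. reference was 0.20, with an adjusted p of 0.0480 in edgeR.

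miR-15a-5p, the strand encoded beside miR-16-5p in Dleu2, had 411 to 591 CPM in reference (median 527), 510 to 680 CPM in HFoleic (median 601) and 528 to 694 CPM in HFepa (median 608). The groups overlapped, and 4 of 8 HFoleic and 5 of 7 HFepa libraries exceeded the highest reference library. The lowest of all 23 values was that of reference library 3. Against reference, miR-15a-5p differed by 0.20 (SE 0.07, adjusted p = 0.0897 in edgeR) in HFoleic and by 0.21 (SE 0.08, adjusted p = 0.0579) in HFepa on the log2 scale, and neither was called. Leaving out reference library 2, the highest of its group, brought both past the threshold of a call, with log2 fold changes of 0.25 and 0.26 and adjusted p of 0.0248 and 0.0198. Leaving out reference library 3 gave 0.16 and 0.17 (adjusted p = 0.107 and 0.0831). Over the 23 fits with 1 library left out, the adjusted p was below 0.05 in 3 for HFoleic (0.0248 to 0.211) and in 9 for HFepa (0.0198 to 0.126). With the term for library number the log2 fold changes of miR-15a-5p were 0.16 and 0.15 (adjusted p = 0.539 and 0.841 in edgeR).

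Levels of miR-15a-5p and miR-16-5p kept a nearly fixed proportion. miR-16-5p was 14.01-fold higher in the geometric mean over the 23 libraries, and the SD of their log2 ratio was 0.11. The ratio was 14.2-fold in reference, 13.6-fold in HFoleic and 14.2-fold in HFepa. By contrast, the log2 ratio of miR-15b-5p to miR-16-5p had an SD of 0.30, although Mir15b and Mir16-2 are also neighbours.

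The 3p strands of the pair of Mir16 hairpins showed the loci separately, at few counts. miR-16-1-3p, from the Dleu2 locus, had 9.23 to 12.8 CPM in reference, 10.1 to 14.6 in HFoleic and 9.84 to 16.5 in HFepa, on 43 to 107 counts a library. It differed from reference by 0.18 (SE 0.12, adjusted p = 0.316 in edgeR) in HFoleic and by 0.27 (SE 0.12, adjusted p = 0.139) in HFepa on the log2 scale. miR-16-2-3p, from the Smc4 locus and no member of the set of 8, had 2.50 to 6.81 CPM in reference, 1.75 to 4.99 in HFoleic and 2.53 to 4.76 in HFepa. Its log2 fold changes were negative, at -0.56 (SE 0.22, adjusted p = 0.109) and -0.52 (SE 0.23, adjusted p = 0.139). All of these ranges overlapped, neither strand was called, and miR-16-2-3p rested on 10 to 51 counts a library.

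miR-15b-5p, encoded in Smc4, had 50.8 to 112.7 CPM in reference (median 60.3), 48.3 to 91.7 in HFoleic (median 64.7) and 55.0 to 85.0 in HFepa (median 69.9). The 3 groups lay over each other, and the highest value was reference library 3. The log2 fold changes were 0.03 (95% interval -0.29 to 0.34) in HFoleic vs. reference and 0.01 (-0.31 to 0.33) in HFepa vs. reference, and 0.17 and 0.15 without library 3. The direction was not stable, since both fold changes were negative by library size without TMM factors and with the term for library number. Its 3p strand, miR-15b-3p, had 6.97 to 15.1 CPM in reference, 7.34 to 19.9 in HFoleic and 7.60 to 14.4 in HFepa. Here too the groups overlapped wholly, with log2 fold changes of 0.04 (95% interval -0.35 to 0.43) and -0.06 (-0.47 to 0.35), whose sign turned under several other settings, upper-quartile and library-size scaling among them.

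The strands of Mir497 and Mir195a, neighbours on chromosome 11, had negative log2 fold changes against reference in both comparisons, and their size depended on 1 library. miR-497a-5p had 107.5 to 149.6 CPM in the 7 reference libraries other than library 3 and 382.8 CPM in library 3. It had 70.7 to 124.2 CPM in HFoleic (median 112.5) and 94.4 to 139.0 CPM in HFepa (median 103.1). Apart from library 3 the groups overlapped, with 2 of 8 HFoleic and 5 of 7 HFepa libraries below the lowest reference library. Against reference the log2 fold change of miR-497a-5p was -0.55 (SE 0.21, adjusted p = 0.102 in edgeR) for HFoleic and -0.52 (SE 0.22, adjusted p = 0.115) for HFepa. Without library 3 these became -0.21 (SE 0.11, adjusted p = 0.216) and -0.19 (SE 0.12, adjusted p = 0.319).

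miR-195a-5p, with a sequence close to miR-16-5p, had 86.6 to 129.8 CPM in reference without library 3 and 349.6 CPM in library 3. It had 89.9 to 121.6 CPM in HFoleic (median 107.2) and 82.3 to 140.9 CPM in HFepa (median 92.1). The groups overlapped almost wholly once library 3 was set aside. The log2 fold changes of -0.40 (SE 0.22) and -0.45 (SE 0.23) became -0.04 (SE 0.11) and -0.09 (SE 0.11) without library 3, so in HFoleic vs. reference the 95% interval then ran from -0.27 to 0.19. The adjusted p of edgeR was 0.225 and 0.199 with library 3 and 0.887 and 0.669 without it. The 3p strand miR-195a-3p had 8.06 to 12.7 CPM in reference without library 3, 21.6 in library 3, 7.34 to 12.1 in HFoleic and 7.16 to 12.6 in HFepa. Its log2 fold changes were -0.44 (adjusted p = 0.0898) and -0.38 (adjusted p = 0.148), and -0.28 and -0.22 without library 3 (adjusted p = 0.180 and 0.319).

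**Figure D2:**
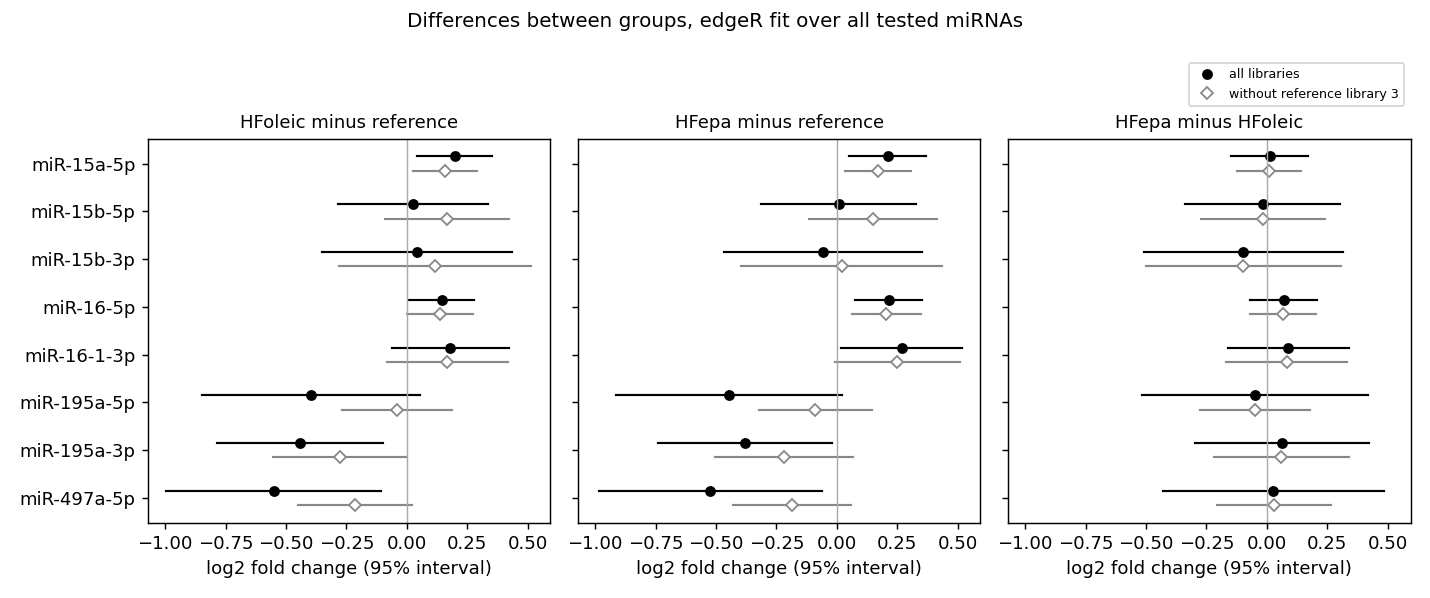
Log2 fold changes (x axis) of the 8 members in the 3 comparisons, with 95% intervals from the edgeR fit, over all libraries (filled circles) and without reference library 3 (open diamonds). The intervals of miR-195a-5p, miR-195a-3p and miR-497a-5p narrow and move towards 0 without that library, while those of miR-16-5p and miR-15a-5p stay above 0 in HFepa minus reference.

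miR-195a-5p and miR-497a-5p rose and fell together from library to library. Their geometric mean ratio was 0.936 over the 23 libraries, with an SD of 0.15 on the log2 scale and a range of 0.798 to 1.27. In library 3, where both were about 3-fold above the median of the other reference libraries (log2 difference 1.66 for each), the proportion was kept. The SD of log2 CPM over all libraries was 0.41 for miR-195a-5p and 0.44 for miR-497a-5p, and 0.21 and 0.24 without library 3. miR-16-5p had an SD of 0.15 and miR-15a-5p of 0.17.

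**Figure D3:**
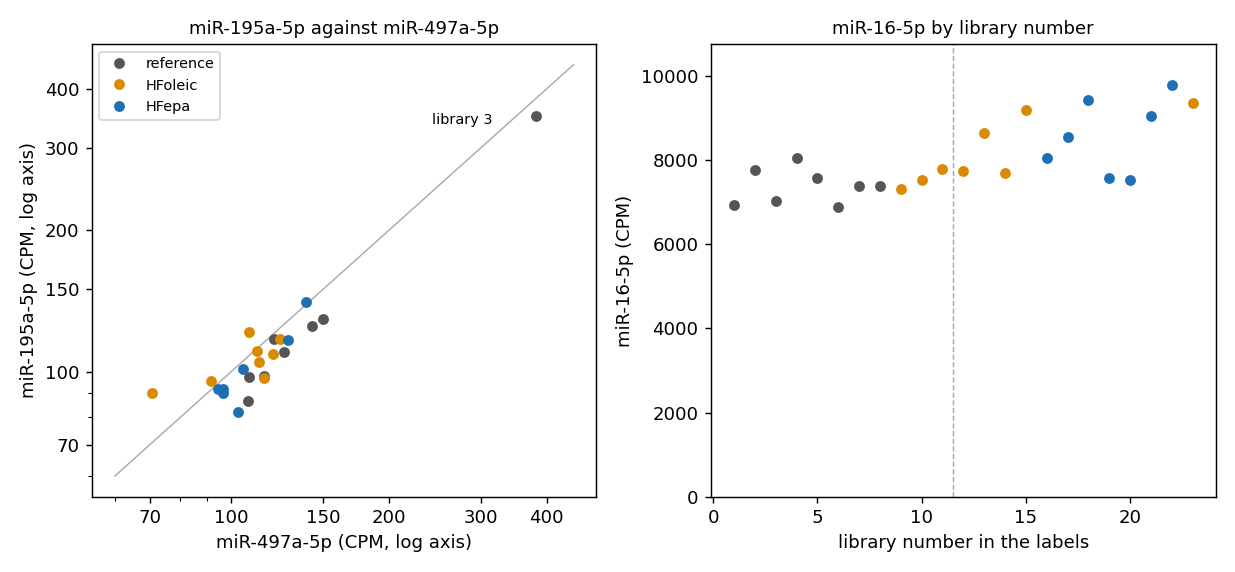
Left, CPM of miR-195a-5p against miR-497a-5p in each library (log axes, grey line at equality), where the points follow the line and reference library 3 is far from the rest at 349.6 and 382.8 CPM. Right, CPM of miR-16-5p by library number (y axis from 0), with the break between libraries 11 and 12 dashed, and 3 HFoleic libraries before the break inside the reference range.

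Reference library 3 split the family by member. Relative to the median of the other 7 reference libraries, its log2 CPM was 1.66 higher for miR-195a-5p and for miR-497a-5p, 0.91 for miR-15b-5p, 0.90 for miR-195a-3p and 0.60 for miR-15b-3p. It was 0.36 lower for miR-15a-5p, 0.11 lower for miR-16-1-3p and 0.07 lower for miR-16-5p. All 5 biliary epithelium markers (the miR-200 family) were higher in this library, and their summed level was 1094 CPM against 151 to 285 CPM in the other reference libraries. All 5 markers of stellate cells, fibroblasts and smooth muscle and all 6 leukocyte markers were higher too, at 42501 against at most 33216 CPM and at 3556 against at most 2800 CPM. All 4 hepatocyte markers were lower, and no marker on these lists was at 0. Both endothelial markers were lower, and their sum of 13884 CPM was the lowest of the 23 libraries. All 4 red blood cell markers were lower as well, and their sum of 3571 CPM was also the lowest of the 23. The part of these cell types in the levels of miR-195a-5p, miR-497a-5p and miR-15b-5p was not tested.

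**Figure D4:**
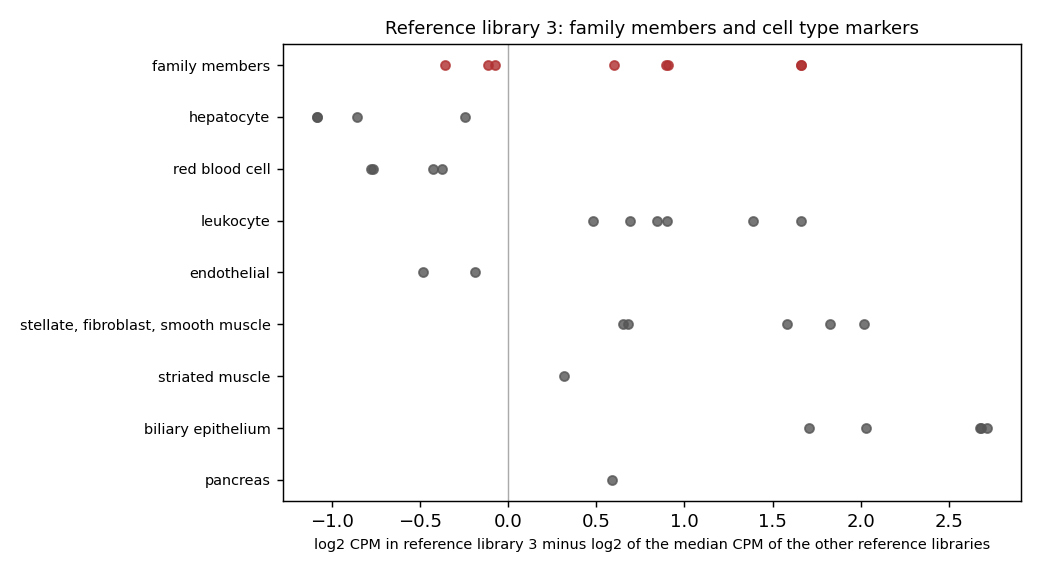
Log2 CPM in reference library 3 minus the log2 of the median CPM of the other 7 reference libraries (x axis), 1 point a miRNA, for the 8 family members and for the cell type markers that passed the filter. The family spreads from -0.36 (miR-15a-5p) to 1.66 (miR-195a-5p and miR-497a-5p), hepatocyte markers lie below 0 and biliary epithelium markers above 1.5.

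Over the groups, 1 of 6 leukocyte markers (miR-150-5p) was lower in each comparison with reference, and 1 of 5 biliary markers (miR-429-3p) was lower in HFepa. Of 2 endothelial markers 1 was higher in HFepa (miR-126a-5p, log2 fold change 0.25, and 0.20 and not called without library 3). The 1 tested marker of pancreas (miR-375-3p) and the 1 of striated muscle (miR-133a-3p) were lower in both comparisons with reference. This held without library 3, but for each marker 1 other reference library set the mean. The medians of miR-375-3p were 16.8 CPM in reference, 15.3 in HFoleic and 15.6 in HFepa, with a reference maximum of 2020 CPM. Those of miR-133a-3p were 5.62, 4.90 and 3.63 CPM, with a reference maximum of 205 CPM. The counts of called markers stand against 12.4% of all miRNAs called in HFoleic and 15.8% in HFepa. Without library 3 the leukocyte counts were again 1 of 6 (miR-150-5p), 1 of 5 biliary markers (miR-141-3p) was higher in HFoleic and none was called in HFepa. Of all miRNAs tested without library 3, 11.4% were called in HFoleic and 14.3% in HFepa, each against reference. No marker of hepatocytes, red blood cells, or stellate cells, fibroblasts and smooth muscle was called in any comparison, with or without library 3. With the term for library number no marker was called, where 1 of all 386 miRNAs was called in HFoleic and 0 in HFepa, each against reference. Log2 fold changes against reference were then -0.36 in HFoleic and -0.31 in HFepa for miR-150-5p, and 0.0033 in HFepa for miR-126a-5p. For miR-375-3p they were -3.33 in HFoleic and -3.19 in HFepa, and for miR-133a-3p -2.77 and -3.06.

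Markers of other tissue stood out in 2 further reference libraries, for pancreas by 1 marker alone. The summed pancreas markers were 2021 CPM in library 5 and at most 57.4 CPM elsewhere. Nearly all of the sum in library 5 was miR-375-3p, at 2020 CPM. The other pancreas markers, miR-216a-5p, miR-216b-5p and miR-217-5p, reached at most 0.89, 0.36 and 0.54 CPM in any reference library. The summed striated muscle markers were 217 CPM in library 4 and at most 12.2 CPM elsewhere. Library 4 also held the highest reference level of miR-16-5p (8044 CPM) and of miR-16-1-3p (12.8 CPM), and library 5 the lowest of miR-16-1-3p (9.23 CPM) and of miR-195a-3p (8.06 CPM). Leaving out library 5 took miR-16-5p in HFepa vs. reference to an adjusted p of 0.0647 in edgeR. The part of these markers in the family's levels was not tested.

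The miRNAs most like each 5p strand were taken by Pearson's r in log2 CPM centred on the group means, over 23 libraries of whole liver that share the group means and depth range, as a description. miR-195a-5p went closest with miR-200a-3p (r = 0.94) and miR-199a-3p (r = 0.92), and miR-497a-5p with miR-200a-3p (r = 0.91) and miR-429-3p (r = 0.91). Without library 3 these were 0.76, 0.66, 0.70 and 0.66, lower in each pair. miR-15b-5p went with miR-106b-5p (r = 0.78, and 0.66 without library 3) and miR-331-3p (0.76 and 0.70). miR-15a-5p went with miR-29c-3p (0.70 and 0.61) and miR-194-5p (0.69 and 0.49), and miR-16-5p with miR-12178-3p (0.64 and 0.63) and miR-29a-3p (0.63 and 0.64). miR-12178-3p was scarce, at a mean of 1.85 CPM. For each 5p strand these are the 2 highest r among all tested miRNAs outside the family, so they are high by selection.

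Within a hairpin, the 5p strand exceeded the 3p strand in every library for 3 family hairpins, miR-15a, miR-15b and miR-195a. Strands were paired by name, so the Mir16 hairpins, which share miR-16-5p, were left out although their strands passed the filter. The log2 ratio of 5p to 3p was 7.99 ± 0.83 (SD, n = 8) for miR-15a in reference, 8.02 ± 0.53 (n = 8) in HFoleic and 8.10 ± 0.43 (n = 7) in HFepa, with a 3p strand of 4 to 26 counts a library. It was 2.58 ± 0.39, 2.58 ± 0.57 and 2.65 ± 0.35 for miR-15b, and 3.33 ± 0.31, 3.48 ± 0.25 and 3.36 ± 0.44 for miR-195a. The use of the arms thus differed more between hairpins than between groups. By limma with Benjamini-Hochberg adjustment over 100 hairpins, the ratio of none of the 3 family hairpins differed in HFoleic vs. reference (15% of all hairpins did), HFepa vs. reference (19%) or HFepa vs. HFoleic (0%), and the lowest adjusted p was 0.606.

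The comparison of HFepa with HFoleic asked what the lineage changed under the high-fat diet, and here no member passed the test. All 8 log2 fold changes lay between -0.10 (miR-15b-3p) and 0.09 (miR-16-1-3p), and no unadjusted p was under 0.05. The 95% intervals were narrow for miR-15a-5p (-0.15 to 0.17) and miR-16-5p, and wide for miR-497a-5p (-0.43 to 0.49) and miR-195a-5p (-0.52 to 0.42). Differences inside these intervals remain compatible with these libraries. The same comparison within libraries 12 to 23 gave 0.00 for miR-15a-5p and 0.01 for miR-16-5p.

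Of the rest of the family and the other strands of its hairpins, 9 names were looked for, 8 were in the count table and 5 passed the filter. Of those 5, 1 was called in HFepa vs. reference, where 15.8% of all miRNAs were, and none in the other comparisons. It was miR-322-3p, the strand opposite to miR-322-5p, which shares the family seed and is the mouse form of human miR-424. miR-322-3p had 47.8 to 65.9 CPM in reference, 48.9 to 88.4 in HFoleic and 64.8 to 89.8 in HFepa. HFoleic covered most of the reference range and reached above it, and the HFepa libraries lay from just under the highest reference value upwards. It was 0.36 higher in HFepa vs. reference (SE 0.12, adjusted p = 0.0342 in edgeR), and 0.33 higher without library 3 (adjusted p = 0.0485). With the term for library number its direction turned, to -0.15 (adjusted p = 0.841 in edgeR). miR-322-5p itself, at 131 to 202 CPM in reference and 148 to 194 CPM in HFepa, had a log2 fold change of 0.18 (SE 0.09, adjusted p = 0.180). miR-15a-3p, miR-16-2-3p and miR-503-3p were not called, and miR-497a-3p, miR-497b and miR-503-5p, with 56, 1 and 34 counts over all libraries, did not pass the filter.

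Other miRNAs known for a part in growth were counted beside the family, from lists chosen with earlier results of these data known. None of 10 growth-restraining miRNAs, which include let-7 members, miR-26a-5p, miR-101a-3p, miR-122-5p and miR-34a-5p, was called in any comparison, and the median of their log2 fold changes against reference was 0.08 for HFoleic and 0.09 for HFepa. Without library 3, in which miR-34a-5p was 2.57 higher on the log2 scale than the median of the other reference libraries, miR-34a-5p, a target of p53, was higher than reference by 1.02 on the log2 scale in HFoleic (SE 0.27, adjusted p = 0.0240 by edgeR's quasi-likelihood test). In HFepa its log2 fold change against reference was 0.71, which was not called (adjusted p = 0.0841). Its log2 fold change between HFepa and HFoleic was -0.30 (adjusted p = 0.864 in edgeR). With library 3 kept, the mean of miR-34a-5p was 33.3 CPM in reference, 41.4 CPM in HFoleic and 33.3 CPM in HFepa. With library 3 kept and the term for library number, its log2 fold changes against reference were negative. They were -0.27 in HFoleic and -0.85 in HFepa (adjusted p = 0.883 and 0.841 in edgeR). Among 12 growth-promoting miRNAs none was called higher, while 2 were called lower when HFoleic, and 3 when HFepa, was set against reference. Calls of lower level also outnumbered those of higher level over all 386 miRNAs, by 29 to 19 and by 41 to 20, where 12.4% and 15.8% were called, so nothing particular to this list is read from its counts. miR-25-3p, of the miR-106b cluster, fell by 0.26 and 0.29 on the log2 scale (adjusted p = 0.0174 and 0.00653), and miR-19a-3p, of the miR-17-92 cluster, by 0.40 and 0.49 (adjusted p = 0.0469 and 0.0224). miR-222-3p, which lowers the cell cycle inhibitor p27, fell by 0.60 in HFepa vs. reference (adjusted p = 0.0137). Without library 3 the calls among these 12 numbered 0 for HFoleic and 3 for HFepa, all of lower levels. The fit without library 3 called 11.4% of all tested miRNAs for HFoleic and 14.3% for HFepa, each against reference. In HFoleic miR-25-3p was then at -0.22, below the fold threshold (adjusted p = 0.0285 in edgeR), and miR-19a-3p at -0.34 (adjusted p = 0.0834). With the term for library number no miRNA of these lists was called, where 1 of all 386 miRNAs was called in HFoleic and 0 in HFepa, each against reference. The log2 fold changes were then -0.14 in HFoleic and -0.10 in HFepa for miR-25-3p and -0.30 and -0.32 for miR-19a-3p, while miR-222-3p in HFepa turned to 0.25.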

How the data were processed

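Small RNA of 23 livers was analysed. The read counts per mature miRNA were deposited by the authors without normalization. Per the paper's methods, adapters were removed with the FASTX-Toolkit and reads were aligned with Bowtie, in the pipeline ncPRO-seq, and annotated with miRBase. The genome is named there as GRCm38.p6 and as mm9, and as mm10 in the submitters' processing notes. RNA input is given differently in the labels and the methods. The columns of size-factor-scaled values, group means, fold changes and p-values were not used.

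The counts that passed edgeR's filterByExpr by group (386 of 1218) were scaled by TMM and fitted in 1 model of 3 groups, with edgeR 4.0.16 in R 4.3.3. Each comparison used the quasi-likelihood test with Benjamini-Hochberg adjustment over all 386, and a call needed an adjusted p below 0.05 with a log2 fold change beyond 0.25 in either direction. The methods give the study's fold change threshold as 0.25 without naming a scale, and it was read here as a log2 fold change. The study's DEGseq test was not run. SE is the fold change divided by the square root of F. Levels are CPM with TMM factors. The 5p to 3p ratio was tested with limma 3.58.1, a prior count of 2 being added before the log2 CPM were taken. Alternatives were DESeq2 1.42.0, quantile normalization, limma-voom, other scalings and filters, the 2 groups alone, other thresholds, a term for library number, the libraries on either side of number 11, and each library left out. The counts of all lists without library 3, and their values with the library term, were added after the data were seen. The fits were tested on simulated counts. No 2 libraries of a group were alike within counting noise. Each library is 1 mouse, by its labels a separate sample, and libraries of a group differed by more than counting error. Figures were drawn with matplotlib.

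The named miRNAs are the 8 members, the rest of the seed family and its hairpins, the 2 most alike miRNAs for each 5p member, and called members of the growth lists. miR-34a-5p without library 3, and markers in single libraries, were named after their values were seen. The members were taken by name and not by a measured value, but members and lists alike were chosen with earlier results of these data known.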

Additional observations from a re-analysis of the deposited data

Results flagged for a closer look

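In 24 sets of 1 member in 1 group, 5 held a library far from the rest of its group, by a gap to the next library that was over Dixon's 95% limit as a share of the group's range. Chance flags about 1 set in 20. Of these, 4 were reference library 3. There miR-195a-5p was at 349.6 CPM against 86.6 to 129.8 in the other reference libraries, and miR-497a-5p at 382.8 CPM against 107.5 to 149.6. In the same library miR-195a-3p was at 21.6 CPM against 8.06 to 12.7, and miR-15b-5p at 112.7 CPM against 50.8 to 73.9. The fifth was HFoleic library 14, where miR-15b-3p was at 19.9 CPM on 98 counts, against 7.34 to 12.4 in the other HFoleic libraries. miR-15b-5p had its lowest HFoleic value, 48.3 CPM, in that library.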

How the results depend on the processing

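No family member was called in HFoleic vs. reference or HFepa vs. HFoleic under any setting that kept every library. In HFepa vs. reference 1 was called when the fold threshold was dropped. Leaving out 1 library gave 0 to 1 members called in HFoleic vs. reference and 0 to 1 in HFepa vs. reference, where the 1 was miR-15a-5p without reference library 2. Of 1170 values under other settings, 1083 kept their direction and side of the threshold and 81 turned sign. The cause of these turns was not tested.

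Log2 fold changes that turned sign were near 0 or of miR-15b. In HFoleic vs. reference, by library size without TMM factors, with the term for library number and in libraries 1 to 11 alone, miR-15b-5p was at -0.083, -0.092 and -0.081 and miR-15b-3p at -0.060, -0.30 and -0.29. In HFepa vs. reference miR-15b-5p was at -0.077 by library size, -0.0051 with no filter, -0.011 with at least 10 counts in every library and -0.18 with the term, and miR-15b-3p at 0.0089 by upper quartile, 0.090 by quantile normalization and 0.16 by limma-voom. In HFepa vs. HFoleic miR-15a-5p was at -0.0056 by upper quartile, -0.0091 by quantile normalization, -0.0065 with at least 10 counts and -0.010 with the term. There miR-15b-5p was at 0.0053 by library size, 0.0037 by DESeq2, 0.031 by quantile normalization and 0.0087 with these groups alone, and by limma-voom miR-15b-3p was at 0.070 and miR-497a-5p at -0.042. The difference in the arm ratio of miR-15a in HFoleic vs. reference was -0.021 with a prior count of 0.5.

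With each library left out in turn, miR-15b-5p ranged from -0.037 to 0.17 and miR-15b-3p from -0.12 to 0.12 in HFoleic vs. reference, and from -0.051 to 0.15 and -0.11 to 0.025 in HFepa vs. reference. In HFepa vs. HFoleic the ranges were -0.0056 to 0.049 for miR-15a-5p, -0.070 to 0.063 for miR-15b-5p, -0.17 to 0.071 for miR-15b-3p, -0.13 to 0.0091 for miR-195a-5p, -0.0023 to 0.14 for miR-195a-3p and -0.040 to 0.095 for miR-497a-5p. Differences in arm ratio in HFoleic vs. reference ranged from -0.17 to 0.19 for miR-15a and -0.10 to 0.19 for miR-15b. In HFepa vs. reference they ranged from -0.087 to 0.27 for miR-15a, -0.038 to 0.19 for miR-15b and -0.077 to 0.12 for miR-195a, and in HFepa vs. HFoleic from -0.0078 to 0.23 for miR-15a and -0.13 to 0.19 for miR-15b.

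With the term for library number the calls over all miRNAs were 1, 0 and 0 in the 3 comparisons, against 48, 61 and 0 without it. Reference lay wholly before the break and HFepa wholly after it, so the term is nearly aligned with group and precision is lost. In HFepa vs. reference the SE went from 0.07 to 0.11 for miR-16-5p and from 0.23 to 0.40 for miR-195a-5p. The loss of calls therefore cannot tell group from library number. No paired analysis was possible because the labels give the groups no shared replicate numbers, and the numbers used here only name samples. miR-15a-3p and miR-16-2-3p rest on few counts, at most 26 and 51 a library.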
